A study of Danio rerio with 6 samples.

Results

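The endoplasmic reticulum (ER) stress genes described here are *hspa5* (ENSDARG00000103846), *hsp90b1* (ENSDARG00000003570), *pdia4* (ENSDARG00000018491), *xbp1* (ENSDARG00000035622) and *ddit3* (ENSDARG00000059836). They were taken by Ensembl identifier for their known roles in the ER. The rule itself uses no measured value, but earlier results of these data were known when the genes were chosen. All 5 were found among the 25190 genes of the deposited count table and the 32264 genes of the deposited FPKM table, and all 5 were among the 17242 genes with enough counts to be tested.

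RNA-Seq was run on whole retinas dissected from zebrafish larvae at 5 dpf. The 3 *pde6c* samples (PR1, PR2 and PR3) came from larvae homozygous for the w59 allele of *pde6c*, the cone phosphodiesterase of phototransduction, and the 3 WT samples (WR1, WR2 and WR3) from wild-type larvae. Each sample pooled 3 retinas from 3 larvae, and all larvae had been kept in the dark before dissection. The mutant larvae were offspring of heterozygous parents. The WT larvae were offspring of wild-type siblings of those parents, so that parentage and genotype cannot be told apart. Larvae of both genotypes were first screened by their optokinetic response, which served to pick out the mutants. The trunk left after dissection was then genotyped. Every cell of the larva carries the mutation, and the retina was sequenced as a whole while its cones were degenerating, so no value below belongs to a single cell type.

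Secreted and membrane proteins fold in the lumen of the ER with the help of chaperones and of enzymes that form disulfide bonds. When unfolded protein accumulates there, the sensors PERK (*eif2ak3*), IRE1 (*ern1*) and ATF6 (*atf6*) start the unfolded protein response: IRE1 splices the *xbp1* mRNA, PERK slows translation and favours that of ATF4, and ATF6 is cut to release a transcription factor. Photoreceptors make opsin and other membrane proteins of the outer segment in large amounts, and this response has been studied in rodent retinas that carry misfolded rhodopsin.

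The counted fragments totalled between 18757605 and 22510222 per sample. Levels are given as CPM, the counts divided by the TMM-normalized library total, and a gene with 3 counts would stand at 0.129 to 0.169 CPM. This limit covers counting error only. With a quasi-likelihood test in edgeR and *P*-values adjusted by Benjamini-Hochberg, 636 of the 17242 genes tested (3.69%) differed between the genotypes at an adjusted *P*-value under 0.1, the threshold used throughout. The 241 higher in *pde6c* were 1.40% of the genes tested. The levels of the genotypes did not overlap for 2915 genes (16.9%), and the median log2 fold change of all genes was 0.0022. The targeted gene *pde6c* could not be checked in the counts, where it was listed at 0 in all samples. Its whole span also lies within *cep55*, and fragments on more than 1 gene were not counted. In FPKM it was 445, 655 and 520 in WT and 60.1, 140.2 and 84.8 in *pde6c*, a log2 difference of -2.56 (SE 0.36, limma adjusted *P*-value 0.0448). That difference kept its direction but lost the call in 5 of the 6 fits with a sample left out. The summed level of the cone markers was between 15940 and 18070 CPM in WT and between 6577 and 9210 CPM in *pde6c*, with 8 of 12 tested markers lower, none higher and *pde6c*, *guca1d* and *pde6h* at 0 in all samples. The rod markers summed to between 2056 and 2991 CPM in WT and between 1344 and 1873 CPM in *pde6c*, with 3 of 10 lower. The paper cites earlier work in which rod number was like that of WT until at least 6 dpf. Rods were not counted in these samples. The microglia and macrophage markers summed to between 71.3 and 109.6 CPM in WT and between 115.1 and 126.2 CPM in *pde6c*, with 0 of 8 called. The amacrine and horizontal cell markers summed to between 1651 and 1733 CPM in WT and between 1657 and 1728 CPM in *pde6c*, also with none called. Of the bipolar markers 1 of 7 was higher, of the Müller glia markers 1 of 8 was lower, and no ganglion cell or pigment epithelium marker was called. The lens, blood and muscle markers summed to at most 12.7 CPM in any sample. In whole tissue, fewer cells of a type and less RNA per cell cannot be told apart, and the part of these shifts in any result below was not tested.

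Among the 5 genes, *xbp1* rose in the *pde6c* retina, by 3.45-fold, and it alone passed the edgeR test. *hspa5* was 1.53-fold higher on average with no overlap between genotypes, but its edgeR adjusted *P*-value of 0.155 did not pass. It did pass with DESeq2, the study's own test of counts (adjusted *P*-value 0.0673). *ddit3* had few counts and a wide interval, and the log2 fold changes of *hsp90b1* and *pdia4* were close to 0, with intervals to both sides of it. Thus edgeR called 1 of the 5, beside 3.69% of all genes, and 2 of the 5 did not overlap, beside 16.9% of all genes. All 5 fitted log2 fold changes were above 0, beside 8675 of all 17242 genes, and their median of 0.61 was the value of *hspa5*. Those of *hsp90b1* and *pdia4* changed sign in some fits with a sample left out. At an unadjusted *P*-value under 0.05 there were 2 of the 5, *xbp1* and *hspa5*, and 2067 of all 17242 genes.

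**Figure D1:**
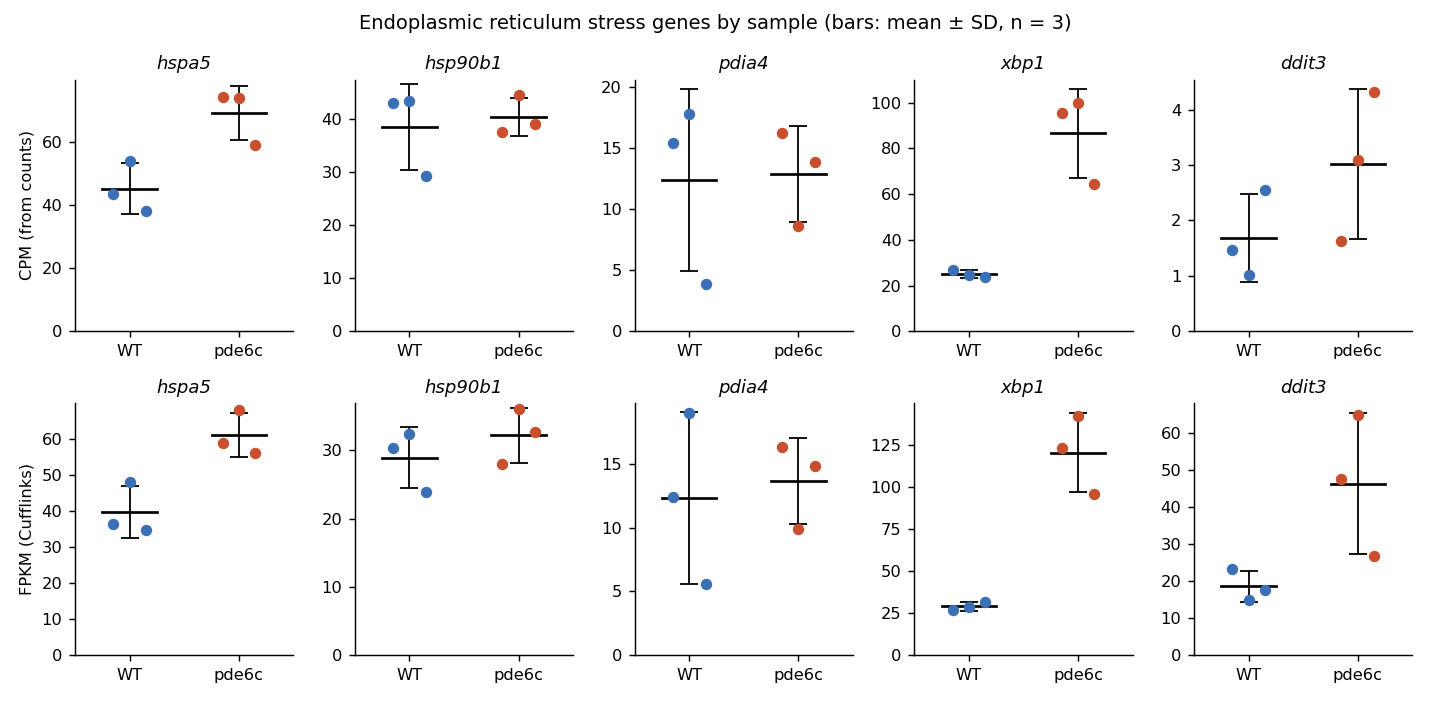
The 5 endoplasmic reticulum stress genes in each sample, in CPM from the counts (upper panels) and in FPKM (lower panels), with WT in blue, *pde6c* in red, and bars for the mean ± SD of 3 samples. The *xbp1* points of *pde6c* lie between 64.3 and 99.9 CPM, above the WT points at 23.6 to 27.0 CPM, whereas the genotypes overlap for *hsp90b1* and *pdia4* in both units.

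Of the chaperones, *hspa5* encodes BiP, the HSP70-family chaperone of the ER lumen, which binds unfolded chains and also the sensors themselves. It lies on the forward strand of chromosome 5 (GRCz10, 2440676 to 2448586) and overlaps no other gene of the annotation. Its counts in the order of the sample numbers, as for all values that follow, were 986, 963 and 794 in WT and 1734, 1580 and 1220 in *pde6c*. Scaled by library, these were 43.6, 54.2 and 38.2 CPM in WT and 74.4, 74.0 and 59.3 CPM in *pde6c*. The lowest *pde6c* sample, PR3, stood only a little above the highest WT sample, WR2, and PR1 and PR2 were well apart from all WT samples. The means were 45.3 ± 8.13 CPM in WT and 69.2 ± 8.62 CPM in *pde6c* (SD, n = 3 each). The log2 fold change was 0.61 (SE 0.20, 95% interval 0.19 to 1.04, edgeR adjusted *P*-value 0.155). The FPKM showed the same order of genotypes, with 36.4, 48.1 and 34.9 in WT and 59.1, 68.2 and 56.3 in *pde6c*, again without overlap. Their log2 difference was 0.62 (SE 0.25, limma adjusted *P*-value 0.477). The call on *hspa5* depended on the test. DESeq2, the study's own test of counts, gave an adjusted *P*-value of 0.0673, past the threshold, at a log2 fold change of 0.62. With any single sample left out, the log2 fold change lay between 0.51 and 0.76 and none of the 6 edgeR fits called it.

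*hsp90b1* encodes GRP94, the HSP90-family chaperone of the ER lumen, which acts on fewer and more specialised client proteins than BiP. It lies on the forward strand of chromosome 4 (GRCz10, 9835549 to 9842920). Its counts were 971, 768 and 606 in WT and 875, 949 and 802 in *pde6c*. Its level was 42.9, 43.2 and 29.2 CPM in WT and 37.6, 44.4 and 39.0 CPM in *pde6c*. WR3 was the lowest sample of all, and the other 5 lay close together regardless of genotype. The means were 38.4 ± 8.02 CPM in WT and 40.3 ± 3.64 CPM in *pde6c* (SD, n = 3 each), and the log2 fold change was 0.07 (SE 0.22, edgeR adjusted *P*-value 0.952). Its 95% interval ran from -0.40 to 0.54, so that a fall or a rise of that size would not have been told from no change. In FPKM the values were 30.4, 32.4 and 23.9 in WT and 27.9, 36.0 and 32.7 in *pde6c*, with a log2 difference of 0.16 (limma adjusted *P*-value 0.900). The sign of the fold change was not stable, since it was -0.086 without WR3 and -0.0076 without PR2.

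*pdia4* encodes ERp72, a protein disulfide isomerase that forms and rearranges disulfide bonds in the ER. It lies on the forward strand of chromosome 24 (GRCz10, 17190259 to 17197039). It was counted at 349, 315 and 80 fragments in WT and at 377, 183 and 284 in *pde6c*, which gave 15.4, 17.7 and 3.85 CPM in WT and 16.2, 8.57 and 13.8 CPM in *pde6c*. WR3 again had the lowest value, here far below the other WT samples, and PR2 was the lowest of the *pde6c* samples. All *pde6c* values lay within the range of the WT values. The log2 fold change of 0.06 (SE 0.46, 95% interval -0.92 to 1.04, edgeR adjusted *P*-value 0.982) therefore carries little information on direction. Without WR3 it was -0.36, and without PR1 it was -0.13. The FPKM had the same low WR3, with 12.4, 19.1 and 5.56 in WT and 16.4, 9.89 and 14.8 in *pde6c*, and a log2 difference of 0.25 (limma adjusted *P*-value 0.906).

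Of the transcription factors, *xbp1* encodes the one whose mRNA IRE1 splices, and the spliced form drives genes for ER chaperones and for degradation of misfolded proteins. It lies on the reverse strand of chromosome 5 (GRCz10, 15444194 to 15448703) and overlaps no other gene of the annotation. It was counted at 610, 441 and 489 fragments in WT and at 2224, 2133 and 1324 in *pde6c*. Scaled by library, these were 27.0, 24.8 and 23.6 CPM in WT and 95.5, 99.9 and 64.3 CPM in *pde6c*. The WT samples lay close together, and every *pde6c* sample lay far above them, PR3 less so than PR1 and PR2. The means were 25.1 ± 1.72 CPM in WT and 86.6 ± 19.4 CPM in *pde6c* (SD, n = 3 each). The log2 fold change was 1.79 (SE 0.21, 95% interval 1.33 to 2.24, edgeR adjusted *P*-value 8.9e-05). By *P*-value it ranked 58 and by log2 fold change 261 among the 17242 genes. The rise passed the test in all 6 fits with a sample left out, at log2 fold changes between 1.67 and 1.97.

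In FPKM, *xbp1* was 26.6, 28.7 and 31.7 in WT and 123.2, 142.2 and 95.5 in *pde6c*, again with PR3 the lowest mutant sample and no overlap. The log2 difference was 2.00 (SE 0.26, limma adjusted *P*-value 0.0353), and it was the only 1 of the 5 called in this unit, where 0.988% of 15782 genes were called. This call was lost in 5 of the 6 fits with a sample left out, all but that without PR3. Over the 6, adjusted *P*-values lay between 0.0897 and 0.144 and the difference between 1.87 and 2.16. The counts hold 1 value per gene over its whole span, so the spliced and unspliced forms of *xbp1* cannot be told apart.

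*ddit3* encodes CHOP, a factor induced through PERK and ATF4 and known for its part in cell death under prolonged ER stress in mammals. It lies on the forward strand of chromosome 6 (GRCz10, 58921658 to 58924855), a span of 3198 bases. Of these, 2080 bases (65.0%) also lie within *fam210b* (ENSDARG00000052638) on the opposite strand, and fragments on them were not counted for either gene. The remaining 1118 bases gave 33, 18 and 53 counts in WT and 38, 66 and 89 in *pde6c*.

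**Figure D2:**
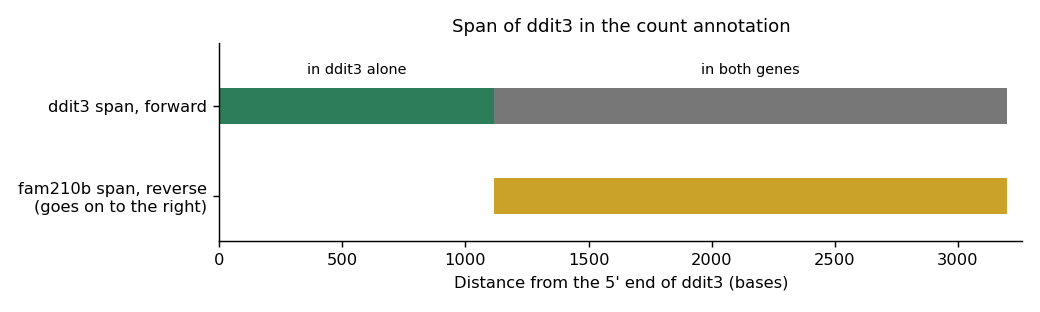
The span of *ddit3* in the count annotation, with distance from its 5′ end in bases along the axis. The 1118 bases in green lie in *ddit3* alone, and the 2080 bases in grey also lie within the opposite-strand gene *fam210b* (yellow), where fragments were left out of the counts.

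These counts of *ddit3* were 1.46, 1.01 and 2.55 CPM in WT and 1.63, 3.09 and 4.33 CPM in *pde6c*. PR2 and PR3 lay above all WT samples, but PR1 lay below WR3, so that the genotypes overlapped. The log2 fold change was 0.84 (SE 0.68, 95% interval -0.59 to 2.28, edgeR adjusted *P*-value 0.717). With each sample left out it ran from 0.50 without PR3 to 1.29 without WR3, and none of the 6 fits called it. In the FPKM, *ddit3* was 23.1, 14.8 and 17.6 in WT and 47.5, 64.8 and 26.6 in *pde6c*, so that here the lowest mutant sample, PR3, was above the highest WT sample, WR1. The log2 difference was 1.21 (SE 0.37, limma adjusted *P*-value 0.313), which did not pass either. The units also ordered the samples differently, since PR3 was the highest *pde6c* sample in CPM and the lowest in FPKM. The 2 tables were made from the same reads by different programs and are not independent measurements.

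Because FPKM divides by transcript length, levels can be compared between genes in that unit. The place of *ddit3* is less sure, since 65% of its span also lies within *fam210b*. Whether its FPKM holds reads of that gene was not tested. In WT, *hspa5* had the highest mean, at 39.8 ± 7.23 FPKM (SD, n = 3), followed by *xbp1* at 29.0 ± 2.56, *hsp90b1* at 28.9 ± 4.48, *ddit3* at 18.5 ± 4.23 and *pdia4* at 12.4 ± 6.75. In this order *xbp1* and *hsp90b1* did not differ beyond their spread, nor did *ddit3* and *pdia4*. In *pde6c*, *xbp1* was first at 120.3 ± 23.5 FPKM, followed by *hspa5* at 61.2 ± 6.23, *ddit3* at 46.3 ± 19.1, *hsp90b1* at 32.2 ± 4.05 and *pdia4* at 13.7 ± 3.39. There *xbp1* was above the other 4 in every sample, while the values of *ddit3* overlapped those of *hspa5* and of *hsp90b1*.

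The other genes of the ER were read from lists drawn up by symbol from general knowledge of the pathway, with earlier results of these data known. The lists held 65 genes, of which 63 identifiers were in the count table and 60 were tested. Of the 60, 5 rose (8.33%, beside 3.69% of all genes), 0 fell and 55 did not pass the edgeR test. The 5 were *eif2ak3*, *atf6*, *atf3*, *hyou1* and *p4hb*. The median log2 fold change was 0.29, beside 0.0022 over all genes. There were 42 values above 0 and 18 below, beside 8675 of all 17242 genes above 0. The genotypes did not overlap for 18 of the 60, beside 2915 of all 17242 genes (16.9%). At an unadjusted *P*-value under 0.05 there were 16 of the 60, beside 2067 of all 17242 genes. Of these 16, *chac1*, *creb3l2* and *ero1a* were lower in *pde6c*, at log2 fold changes of -0.59, -0.98 and -1.07, and the others were higher. The lower genes were named after their values were seen. The count of calls was 10 with DESeq2, 9 of them higher and 1 lower, beside 1081 of 18380 genes called by DESeq2. In FPKM, limma called 3 of the 59 list genes tested, beside 0.988% of 15782 genes. These 3 were *atf3*, *hyou1* and *ppp1r15b*.

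**Figure D3:**
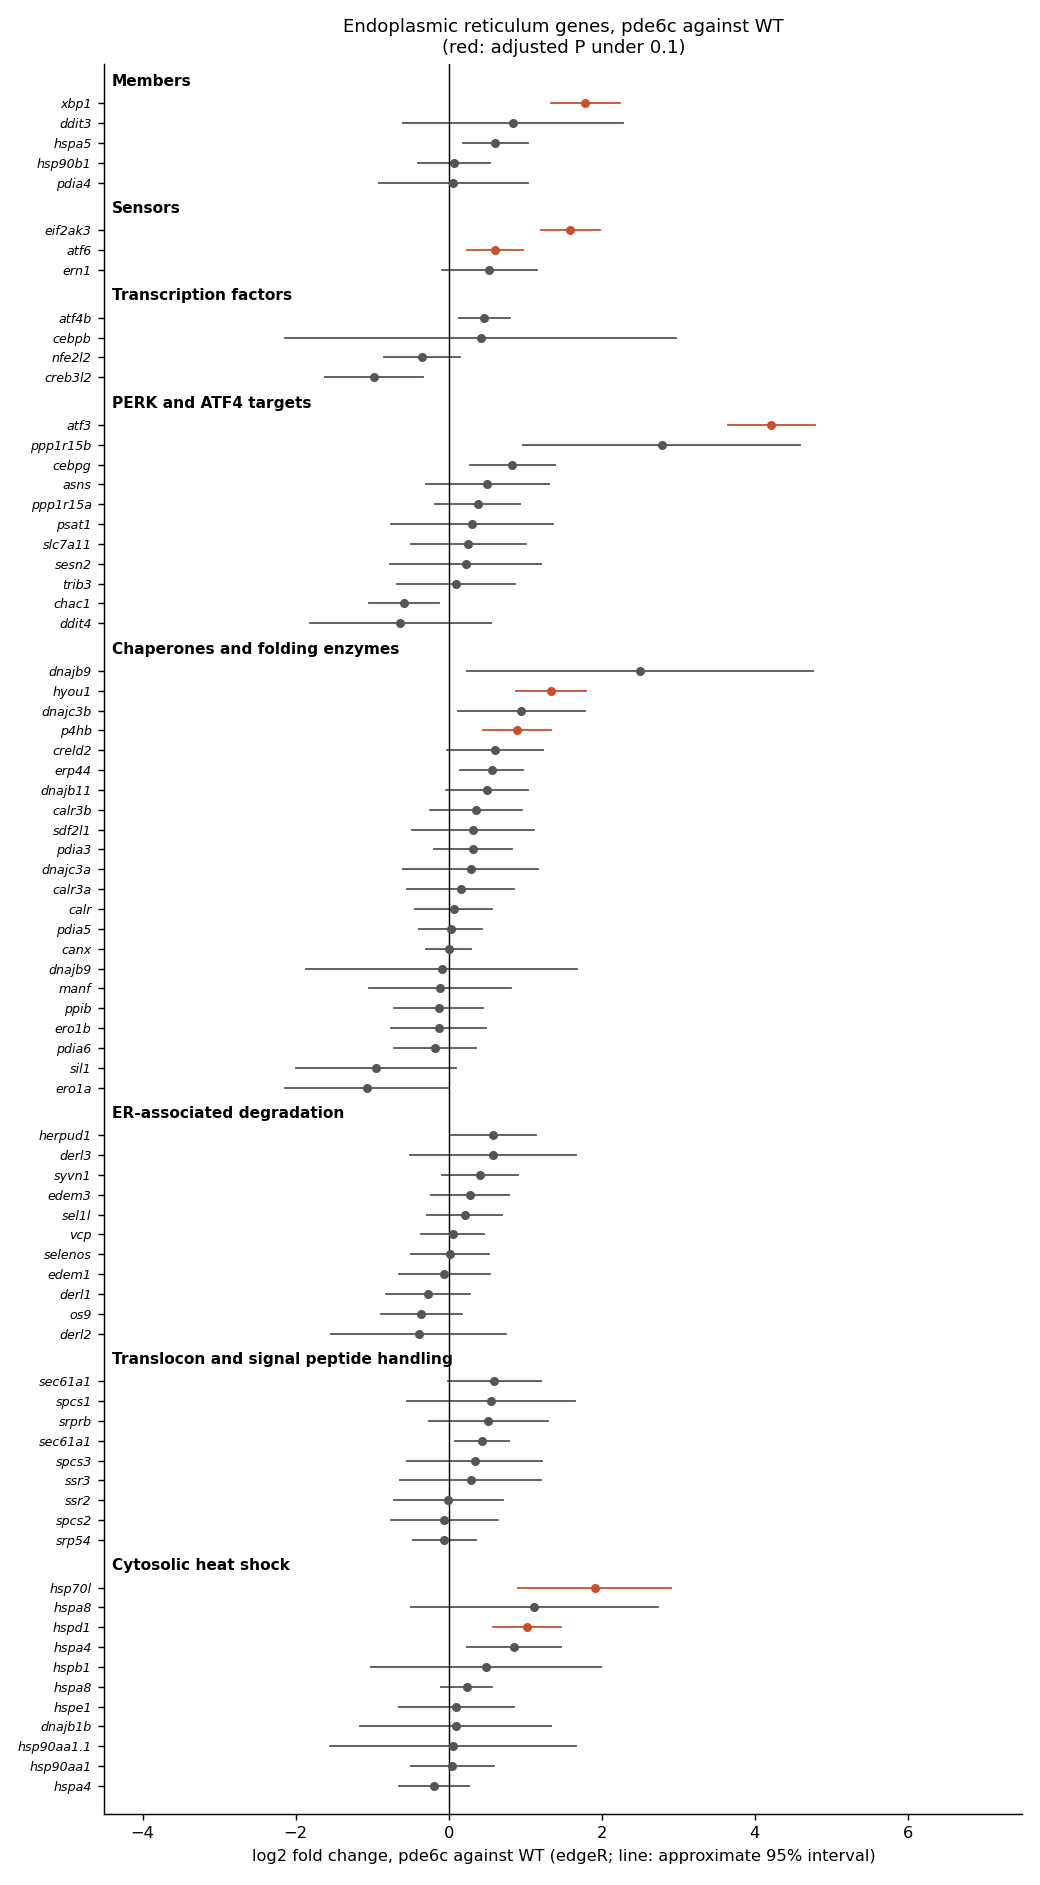
Fitted log2 fold change of *pde6c* against WT for the 5 genes (top group), the other ER genes by role and a comparison group of heat shock genes outside the ER, with points for edgeR's estimate, lines for the approximate 95% interval and red for an adjusted *P*-value under 0.1. Of the 5 genes only *xbp1* is red, and *ddit3* and *pdia4* have intervals that reach far to both sides of 0.

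Of the sensors above *xbp1* and *ddit3* in the pathway, 2 of 3 rose, beside 1.40% of all genes called higher. *eif2ak3*, the PERK kinase, was 42.4, 46.9 and 36.2 CPM in WT and 113.7, 135.4 and 129.1 CPM in *pde6c*, a log2 fold change of 1.59 (SE 0.18, edgeR adjusted *P*-value 5.43e-05). Its mutant samples were all far above WT in CPM, but in FPKM PR1 was much lower than PR2 and PR3, and limma did not call it there (log2 difference 1.58, adjusted *P*-value 0.210). *atf6* was 73.4, 63.4 and 70.5 CPM in WT and 109.2, 117.0 and 89.03 CPM in *pde6c*, a log2 fold change of 0.60 (SE 0.17, edgeR adjusted *P*-value 0.0901). That call was narrow: 5 of the 6 fits with a sample left out lost it, and limma did not call it in FPKM (log2 difference 0.33, adjusted *P*-value 0.708). Over 34.5% of its span it overlaps *rxrgb*, where fragments were not counted. *ern1*, the IRE1 gene that acts on *xbp1* mRNA, was 31.2, 31.2 and 37.5 CPM in WT and 36.3, 77.5 and 30.6 CPM in *pde6c*, a log2 fold change of 0.53 (SE 0.29, edgeR adjusted *P*-value 0.530). Only PR2 stood above the WT samples, and the log2 fold change without it was 0.0049.

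Among 11 genes listed under targets of PERK and ATF4, 1 rose and 10 did not pass, beside 1.40% of all genes called higher. Their log2 fold changes were above 0 for 9 and below 0 for 2, *chac1* and *ddit4*, beside 8675 of all 17242 genes above 0. Of the 9, *slc7a11* had 168 to 386 counts but at most 0.0284 FPKM in any sample. *trib3*, also among the 9, was at 0.09 in the counts but at -0.21 in FPKM. *slc7a11* and *trib3* were named after their values were seen. *chac1* had a mean of 60.7 CPM in WT and 40.4 CPM in *pde6c*, without overlap (-0.59, edgeR adjusted *P*-value 0.236). *ddit4* was at -0.63 (edgeR adjusted *P*-value 0.755), with overlap. Both were named after their values were seen. The one called was *atf3*, a transcription factor of many stress responses and not only of the ER. It was 6.05, 3.21 and 5.01 CPM in WT and 75.2, 99.4 and 92.5 CPM in *pde6c*. All mutant samples lay far above the highest WT sample, and the log2 fold change was 4.22 (SE 0.27, edgeR adjusted *P*-value 2.04e-07; limma on FPKM 4.22, adjusted *P*-value 0.00690). *ppp1r15b*, a phosphatase subunit that opposes PERK, was named after its values were seen. Its counts were few, at 19, 0 and 41 in WT and 119, 138 and 166 in *pde6c*. Its mean was 0.938 CPM in WT and 6.55 CPM in *pde6c* without overlap, with a log2 fold change of 2.78 (SE 0.86, edgeR adjusted *P*-value 0.119). It was called in the counts with DESeq2 (2.80, adjusted *P*-value 0.0110), with edgeR without a filter on low counts (2.80, 0.0826) and without WR3 (3.90, 0.0667), and in FPKM with limma (1.95, 0.0893). The related *ppp1r15a* of the same list, also named after its values were seen, overlapped between the genotypes (0.38, edgeR adjusted *P*-value 0.651). Whether PERK or ATF4 acted on *ppp1r15b* here was not tested. DESeq2 also called *cebpg* of the same list (0.84, adjusted *P*-value 0.0187) and *erp44* of the folding enzymes (0.57, adjusted *P*-value 0.0907). Both were named after their values were seen. In FPKM, limma called neither *cebpg* (log2 difference 1.08, adjusted *P*-value 0.157) nor *erp44* (0.069, adjusted *P*-value 0.983). The mean of *erp44* was 12.3 FPKM in WT and 12.2 FPKM in *pde6c*. Over 33% of its span *erp44* overlaps other genes, where fragments were not counted. Of 5 transcription factors listed beside *xbp1* and *ddit3*, 4 were tested, and *atf4a* had no matching identifier and was not examined. None of the 4 was called by edgeR with genotype alone. DESeq2 called *creb3l2* and *atf4b*, both named after their values were seen. *creb3l2*, an ER-bound factor related to ATF6, was 21.2, 18.2 and 24.0 CPM in WT and 10.7, 8.62 and 12.9 CPM in *pde6c*, without overlap, and was the 1 list gene that DESeq2 called lower. Its log2 fold change was -0.98 in edgeR (adjusted *P*-value 0.126) and -0.97 in DESeq2 (adjusted *P*-value 0.0197). *atf4b*, a zebrafish gene for ATF4, was at 0.47 in both (adjusted *P*-value 0.157 in edgeR and 0.0869 in DESeq2).

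Among 22 chaperones and folding enzymes beside *hspa5*, *hsp90b1* and *pdia4*, 2 rose and 20 did not pass, where 1.40% of all genes were called higher. *hyou1*, the chaperone GRP170 that works with BiP, was 21.9, 21.8 and 19.9 CPM in WT and 45.5, 59.0 and 56.5 CPM in *pde6c*, a log2 fold change of 1.34 (SE 0.22, edgeR adjusted *P*-value 0.00150). *p4hb*, a protein disulfide isomerase like *pdia4*, was 32.7, 26.6 and 35.2 CPM in WT and 49.6, 61.5 and 64.8 CPM in *pde6c*, a log2 fold change of 0.90 (SE 0.21, edgeR adjusted *P*-value 0.0283). For neither gene did the values overlap between the genotypes, although 3 of the 6 fits with a sample left out lost the call on *p4hb*. In FPKM, limma called *hyou1* (log2 difference 1.86, adjusted *P*-value 0.0779) but not *p4hb* (0.98, adjusted *P*-value 0.231). By edgeR with genotype alone on all samples, none of 11 tested genes of ER-associated degradation was called, at a median log2 fold change of 0.06. The same fit called none of 9 genes of the translocon and signal peptide machinery, at a median of 0.34. *sec61a1* (ENSDARG00000021669), a subunit of the translocon channel, was called without PR1 at a log2 fold change of 0.60 (edgeR adjusted *P*-value 0.0926), against 0.44 with all samples (adjusted *P*-value 0.263). It was named after its values were seen.

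**Figure D4:**
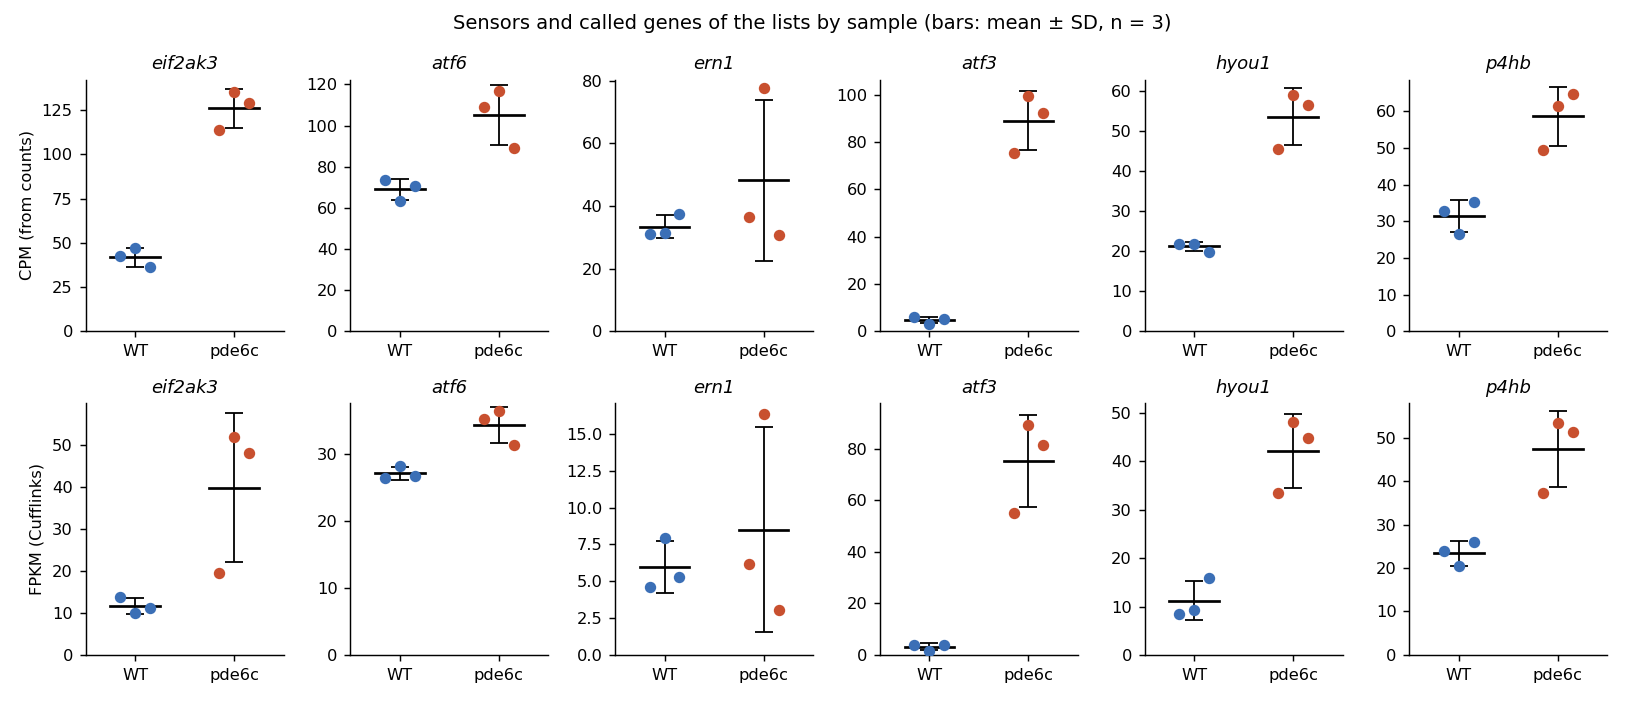
The sensors and the called genes of the ER lists in each sample, in CPM (upper panels) and FPKM (lower panels), with WT in blue, *pde6c* in red, and bars for the mean ± SD of 3 samples. The *atf3* points of *pde6c* lie between 75.2 and 99.4 CPM against at most 6.05 CPM in WT, while for *ern1* only PR2, at 77.5 CPM, stands apart.

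The genes whose levels ran most like each of the 5 across the 6 samples were found by Pearson's *r* of log2 CPM among about 7926 named genes of moderate or high level. These values are descriptions without a test, since a few samples and a shared difference between genotypes allow many high correlations. For *hspa5* they were *nup50* (0.985) and *gnas* (0.979), for *hsp90b1* *cep170b* (0.985) and *marchf6* (0.979), and for *pdia4* *zbtb11* (0.986) and *ppm1nb* (0.981). For *xbp1* they were *arhgap21* (0.993) and *myo6* (0.990), and for *ddit3* *nucb1* (0.989) and *rragb* (0.987). None of these 10 genes passed the edgeR test between the genotypes.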

How the data were processed

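Retinal RNA was amplified as cDNA before paired-end sequencing. The authors aligned reads with STAR 2.5.3a to GRCz10 and deposited raw counts per gene (featureCounts 1.5.2) over whole gene spans, introns included, without strand and without fragments on several places or genes. They also deposited FPKM (Cufflinks 2.2.1). Their own test of the counts was DESeq2 at an adjusted *P*-value under 0.1, and edgeR took its place here as the main test. The count table lists a length for each gene among its other deposited columns.

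Counts were tested with edgeR 4.0.16 (filterByExpr, TMM, quasi-likelihood test of genotype, Benjamini-Hochberg over 17242 genes) and FPKM of genes that reached 1 FPKM in 3 or more libraries with limma 3.58.1 after log2(FPKM + 1), in R 4.3.3. A fold change in FPKM understates that of low genes because of the pseudocount. Each SE is the log2 fold change over the square root of F and is approximate. The script was tested on simulated data. *P*-values measure the spread between pools of 3 retinas, and no 2 samples of a genotype agreed within sampling noise. The planned count test of *pde6c* had no counts, and FPKM were used instead.

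The members and lists were chosen with earlier results of these data known. Named were the 5 genes, called list genes, the sensors, *pde6c* and for each of the 5 genes the 2 most alike. Genes were matched by symbol or, failing that, by the symbol without its final a, b or number, so that *atf6b* led to *atf6*. Identifiers that share a symbol were counted separately, and 22595 of 25190 identifiers had a name. The alternatives were DESeq2 1.42.0 and its size factors, other filters, a replicate block, an adjusted *P*-value under 0.05, FPKM pseudocounts and leaving out each sample.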

Additional observations from a re-analysis of the deposited data

How the results depend on the processing

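The log2 fold changes of *xbp1*, *hspa5* and *ddit3* kept their direction under every alternative run, and that of *xbp1* in the counts also its call. With DESeq2, 1081 genes were called and 10 of the ER lists. *hspa5* passed at a log2 fold change of 0.62. The replicate number was also tried as a block. Deviations of same-numbered samples from their genotype means correlated by 0.0354 to 0.0885, and those of samples with different numbers by -0.0504 to -0.00065. For each gene these deviations sum to 0 within a genotype. The negative values therefore follow in part from the positive ones and are no separate baseline. The same-numbered correlations were taken as too weak to treat the samples as pairs. With the block, 984 genes and 9 of the ER lists were called, *hspa5* passed at 0.62 (edgeR adjusted *P*-value 0.0649), and none of the 5 genes (0) was called in FPKM, where 1 was called without it. The block also called *ppp1r15b* (3.32), *atf4b* (0.46), *creb3l2* (-0.98) and *sec61a1* (0.42). *pde6c* kept a log2 difference of -2.56 but not its call.

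With each sample left out in turn, 414 to 537 genes and 3 to 5 of the ER lists were called, fewest for all genes without PR3 and for the lists without WR2 or PR2. The log2 fold change of *hsp90b1* ran from -0.086 to 0.16 and that of *pdia4* from -0.36 to 0.41, both below 0 in some fits. In FPKM, 0 to 1 of the 5 genes was called, *pdia4* was at -0.19 without WR3, and *pde6c* ran from -2.88 to -2.28. Its call was also lost with log2(FPKM + 0.01), at -2.58, and without a filter on low values, at -2.56. The causes were not tested. *ddit3* had 18 to 89 counts per sample, and depth was not told apart from the uncounted part of its span.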

Other observations

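Heat shock genes that act outside the ER were read beside the ER genes. Of 11 tested, 2 rose in the edgeR test and 9 did not pass, beside 3.69% of all genes called and 1.40% called higher. *hspd1*, the mitochondrial chaperonin HSP60, had a log2 fold change of 1.03 (adjusted *P*-value 0.0103), and *hsp70l*, an inducible cytosolic HSP70, 1.91 (adjusted *P*-value 0.0396). These 2 genes were named after their values were seen. The call on *hsp70l* was lost with DESeq2, at an adjusted *P*-value of 0.142, and in 2 of the 6 fits with a sample left out. Neither was called in FPKM.

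Some genes of the ER lists could not be tested in the counts. *edem2*, of ER-associated degradation, and *sec61b* and *ssr1*, of the translocon, were at 0 counts in all samples, and each span lay wholly within other genes. Their log2 differences in FPKM were -0.62, -0.13 and -0.02, none called by limma. Over all genes, 235 had 0 counts in every sample and at least 10 FPKM in every sample, all 235 overlapped another gene, and 228 were covered whole.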
